A study of Mus musculus with 6 samples.

Results

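Expression of 10 lipid-sensing nuclear receptors and coactivators was compared between E-cadherin conditional knockout (cKO) and control small intestine of mouse embryos, of 19938 genes measured in all. The genes were Ppara, Ppard, Pparg, Rxra, Nr1h3, Nr1h4, Nr5a2, Vdr, Ppargc1a and Creb3l3. A gene was read from a probe set annotated to that symbol alone, the brightest over the 6 arrays where there were several. The cKO group had 3 samples labelled E-cadherin cKO and the control group 3 samples labelled wildtype, all of whole small intestine at embryonic day 18.5, shortly before birth. E-cadherin, the product of Cdh1, joins neighbouring epithelial cells at adherens junctions. The labels name neither the driver of the recombination nor the deleted part of Cdh1 nor any allele of the controls. They also do not tie a sample to an animal, so p-values measure only the spread among these samples, which can be technical.

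Nuclear receptors of this group are transcription factors that are switched on by small fat-soluble molecules. Most of them bind DNA as a pair with a retinoid X receptor, and the pair recruits coactivators such as PGC-1 alpha once the ligand is bound. In the absorptive cells of the intestine they tie gene expression to what is absorbed: fatty acids act on the PPARs, oxysterols on the liver X receptors (LXR), bile acids on the farnesoid X receptor (FXR) and vitamin D on its own receptor. CREB-H, encoded by Creb3l3, is a membrane-bound factor of liver and intestine that is cut free when lipid has to be handled.

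The values are log2 expression values as deposited, and differences are cKO minus control on that scale, with limma's moderated standard error (SE), tested over all genes with Benjamini-Hochberg adjustment at a threshold of 0.05. A called gene is one past that threshold. Array medians over all probe sets lay between 6.17 and 6.48 in cKO and between 6.44 and 6.50 in control, and precision is limited by having 3 arrays a group. On cKO 2 dim genes read low: 1227 genes for olfactory, vomeronasal or taste receptors had a median of 4.28 there and 4.55 to 4.72 on the other arrays. The 95th percentile of these genes on each array (5.79 to 6.25 in cKO and 6.19 to 6.36 in control) is called background. Cdh1 averaged 9.0 ± 0.66 in cKO and 9.94 ± 0.18 in control (SD, n = 3 each), a difference of -0.95 that was not called (limma adjusted p = 0.0884), with cKO 1 at 9.70 closest to the controls. Without cKO 1 it was called (-1.30, adjusted p = 0.0118).

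Of the 10 genes, 6 fell and 1 rose in the cKO intestine, while 3 were not called. Over all genes 7.36% were called lower and 6.81% higher, or 14.2% in either direction. The genes that fell were those for FXR, CREB-H, PPAR alpha, LXR alpha, PGC-1 alpha and LRH-1, and the gene that rose was that for PPAR gamma. The groups did not overlap in 9 of the 10, against 35.4% of all genes, with cKO lower in 8 (19.3% of all genes) and higher in 1 (16.0%). The median difference of the 10 was -0.89, and that of all genes -0.09.

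**Figure D1:**
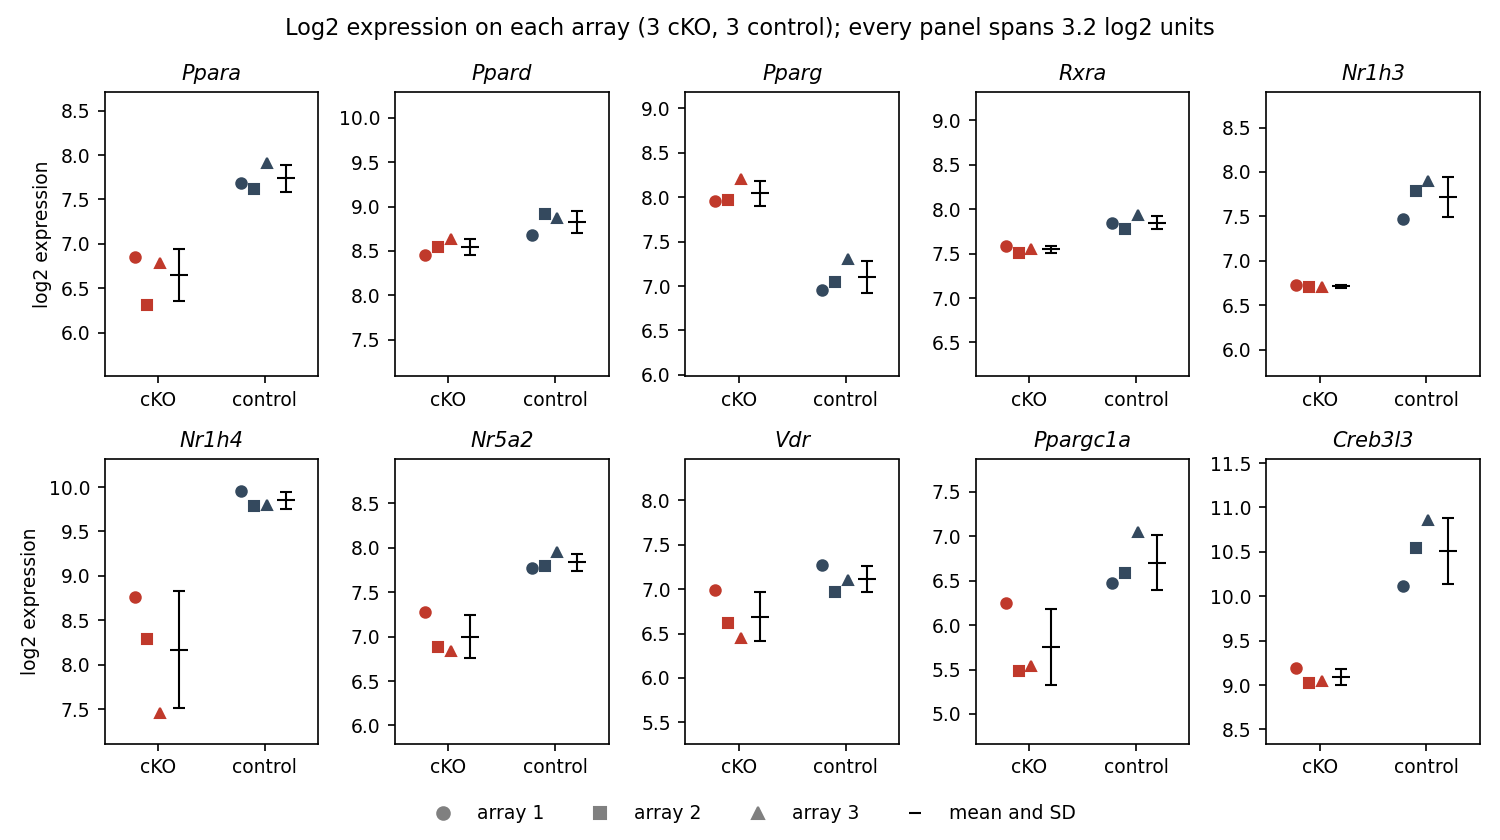
Log2 expression of the 10 genes on each array, with cKO arrays left (red) and control arrays right (blue). Symbols mark the array number, which the labels do not give as a pairing, and bars show the mean and SD (n = 3). All panels span the same number of log2 units around different centres. Pparg is higher in cKO, Vdr overlaps between the groups, and the other 8 genes lie lower in cKO.

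The 3 PPAR genes did not move as a set: Ppara fell, Pparg rose and Ppard was not called. Ppara, the fatty acid sensor that drives fatty acid oxidation, read 6.85, 6.31 and 6.78 in cKO 1, 2 and 3, against 7.69, 7.62 and 7.91 in control 1, 2 and 3. The groups did not overlap, and the difference was -1.09 (SE 0.17, limma adjusted p = 0.00681), or 2.13-fold lower. Pparg, which drives fat cell formation and is also expressed in gut epithelium and macrophages, had higher values in cKO. It read 7.96, 7.97 and 8.21 in cKO and 6.96, 7.04 and 7.30 in control, again without overlap. The difference was 0.95 (SE 0.14, limma adjusted p = 0.00529), or 1.93-fold higher. Ppard, the most widely expressed of the 3 receptors, read 8.46, 8.54 and 8.64 in cKO and 8.68, 8.92 and 8.87 in control. These groups did not overlap either, but they lay close, and the difference of -0.28 was not called (SE 0.12, 95% interval -0.56 to 0.00, limma adjusted p = 0.177).

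Since a shift of a whole array moves all its genes together, Pparg was also set against the other PPAR genes within each array. Pparg minus Ppara was 1.11, 1.66 and 1.43 on the cKO arrays and -0.73, -0.58 and -0.61 on the control arrays. The groups differed by 2.04 in this within-array difference. For Pparg minus Ppard the values were -0.50, -0.57 and -0.43 in cKO and -1.72, -1.88 and -1.57 in control, and the groups differed by 1.22. The exact two-sided permutation test gave p = 0.1 for each, the smallest that 3 against 3 arrays allow. Pparg lay higher, and Ppara and Ppard lower, on every cKO array than on every control array. Both differences thus had to separate the groups, so this p was fixed in advance and adds no support. The pairs were also chosen with earlier results of these arrays known. Only the change of such a difference between groups can be read, not the level of a probe set against that of another.

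Rxra encodes the partner that PPARs, LXR, FXR and the vitamin D receptor share. It read 7.59, 7.51 and 7.55 in cKO and 7.84, 7.78 and 7.93 in control. The groups lay apart with little spread, but the difference of -0.30 (SE 0.11, 95% interval -0.55 to -0.05) was not called (limma adjusted p = 0.109). The other RXR genes were not called either. Rxrb differed by -0.10 (limma adjusted p = 0.596), and Rxrg lay at or below background on all 6 arrays.

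Nr1h3 encodes LXR alpha, the oxysterol receptor that raises sterol efflux and lipogenesis. It was nearly constant in cKO, at 6.73, 6.70 and 6.70, against 7.47, 7.79 and 7.90 in control. The difference of -1.01 (SE 0.14, limma adjusted p = 0.00406) is 2.01-fold lower. Nr1h4 encodes FXR, the bile acid receptor, and had the most negative difference of the 10. Its values were 8.76, 8.29 and 7.46 in cKO 1, 2 and 3, against 9.96, 9.79 and 9.80 in control, a difference of -1.68 (SE 0.30, limma adjusted p = 0.0111) or 3.2-fold lower. The cKO arrays differed more from each other (SD 0.66) than the controls did (SD 0.10), with cKO 3 lowest.

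Nr5a2 encodes LRH-1, a phospholipid-binding receptor that acts in bile acid metabolism, in epithelial renewal and in pancreatic acinar cells. It read 7.28, 6.88 and 6.84 in cKO and 7.77, 7.80 and 7.95 in control, without overlap. The difference was -0.84 (SE 0.15, limma adjusted p = 0.0109), a call lost without control 3 (adjusted p = 0.051). Vdr, the vitamin D receptor gene of calcium absorption, read 6.99, 6.62 and 6.45 in cKO and 7.27, 6.97 and 7.10 in control. Here cKO 1 lay just above control 2, and the difference of -0.43 (SE 0.17, 95% interval -0.82 to -0.04) was not called (limma adjusted p = 0.141). Without cKO 1 it was called (adjusted p = 0.048).

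Ppargc1a encodes PGC-1 alpha, the coactivator of PPARs and of the estrogen-related receptors that raises mitochondrial gene expression and gluconeogenesis. It read 6.25, 5.48 and 5.54 in cKO and 6.47, 6.59 and 7.05 in control. The cKO values lay at or below background, so that Ppargc1a was at least 1.58-fold lower in cKO. With 1 array left out, this bound ran from 1.40-fold (without control 3) to 1.72-fold (without control 1). The measured difference was -0.95 (SE 0.24, limma adjusted p = 0.0423), which was not called without cKO 2, cKO 3, control 1, control 2 or control 3 (adjusted p = 0.095, 0.127, 0.066, 0.108 and 0.148) or with the replicate number as a block (0.059). A dimmer probe set of the same gene read 5.83, 5.14 and 5.41 in cKO and 6.05, 6.24 and 6.30 in control, and differed by -0.74 (limma adjusted p = 0.0407 over all probe sets). It lay at or below background on all 6 arrays, so no fold is given for it.

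Creb3l3, the CREB-H gene, read 9.19, 9.02 and 9.05 in cKO, against 10.12, 10.54 and 10.86 in control. Every cKO array lay below every control array, and the difference was -1.42 (SE 0.19, limma adjusted p = 0.00385), or 2.68-fold lower. Creb3l3, Ppara, Nr1h3, Nr1h4 and Pparg were called under each of the 16 other settings run, with Nr1h4 at an adjusted p of up to 0.0486.

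**Figure D2:**
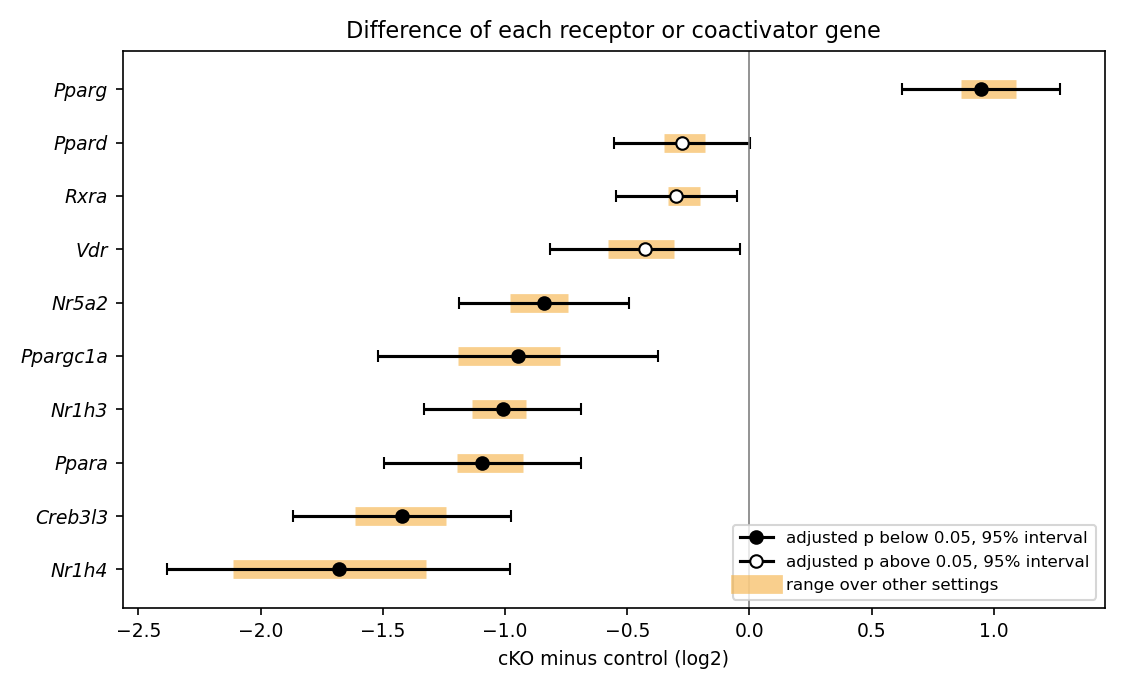
Difference of each gene, cKO minus control on the log2 scale, from the highest to the most negative. Points with bars give the limma estimate and its 95% interval, filled where the adjusted p was below 0.05, and the orange band gives the range of the estimate over the other settings, leave-one-out fits included; no band reaches 0.

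Promoter sequence is shown for Nr1h4 and Creb3l3, which had the most negative differences, for Pparg, which rose, and for Fabp1, a PPAR target described further on. The windows are RefSeq's, GRCm38.p6, from 250 bases before to 50 after an annotated start, printed 5′ to 3′ on the gene's strand. They lie at chr10:89506609-89506908 (minus strand) for Nr1h4, chr10:81092542-81092841 (minus strand) for Creb3l3, chr6:115360894-115361193 (plus strand) for Pparg and chr6:71199629-71199928 (plus strand) for Fabp1. Capitals mark the hexamer AGGTCA, the core of nuclear receptor sites, read on either strand, in Nr1h4, Creb3l3 and Pparg. In Fabp1 they mark only a pair of such hexamers 1 base apart and in the same orientation, the layout that PPAR and RXR bind. The pair was searched as AGGNCA, any base, AGGNCA on either strand. A lone hexamer (tgacct) further on in Fabp1 is left in lower case. For Creb3l3 and Pparg, which have 2 and 3 annotated starts in that table, the window shown is the lowest by coordinate that holds the hexamer.
Nr1h4: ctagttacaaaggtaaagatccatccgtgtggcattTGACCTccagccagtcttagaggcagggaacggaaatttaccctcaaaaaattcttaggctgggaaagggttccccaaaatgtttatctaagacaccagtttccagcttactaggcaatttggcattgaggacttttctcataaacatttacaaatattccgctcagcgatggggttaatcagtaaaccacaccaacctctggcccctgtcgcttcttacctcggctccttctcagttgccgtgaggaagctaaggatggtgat
Creb3l3: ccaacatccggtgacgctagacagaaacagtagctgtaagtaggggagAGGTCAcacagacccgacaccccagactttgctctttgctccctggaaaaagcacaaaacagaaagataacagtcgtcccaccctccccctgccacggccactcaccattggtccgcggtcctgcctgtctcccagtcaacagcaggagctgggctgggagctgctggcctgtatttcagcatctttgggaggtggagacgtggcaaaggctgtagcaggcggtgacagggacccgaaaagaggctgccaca
Pparg: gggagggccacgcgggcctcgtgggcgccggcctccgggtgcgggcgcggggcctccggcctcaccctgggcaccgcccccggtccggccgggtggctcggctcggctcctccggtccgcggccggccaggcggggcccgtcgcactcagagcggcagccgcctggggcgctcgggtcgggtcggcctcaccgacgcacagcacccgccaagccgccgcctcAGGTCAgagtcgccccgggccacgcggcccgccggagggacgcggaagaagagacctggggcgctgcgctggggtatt
Fabp1: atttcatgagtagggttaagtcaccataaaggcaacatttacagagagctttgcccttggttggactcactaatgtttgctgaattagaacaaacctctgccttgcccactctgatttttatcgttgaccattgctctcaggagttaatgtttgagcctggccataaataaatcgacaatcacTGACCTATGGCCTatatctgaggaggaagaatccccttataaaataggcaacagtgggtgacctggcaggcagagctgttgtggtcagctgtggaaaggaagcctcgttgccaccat

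The hexamer AGGTCA occurred in at least 1 window of 5 of the 10 genes (Pparg, Rxra, Nr1h4, Nr5a2 and Creb3l3), against 18.1% of 27025 genes with a window. Of single windows, 6 of 16 held it, against 16.3% of 32851. The paired motif, which contains the hexamer where a free letter is T, was in 0 of the 16 and in 0.381% of all windows. These letters were searched in short windows only, and a match is not a measured binding site.

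The genes that these factors are known to act on were read from 8 lists, which hold 111 measured genes, 6 of them in more than 1 list. Of the 111, 38 fell and 6 rose, and 67 were not called, against 7.36% of all genes called lower and 6.81% higher. The share that rose is thus close to that over all genes, and so is 1 call in each direction on the LRH-1 list of 12. The lists were drawn from textbook knowledge with earlier results of these arrays known. They do not mark which genes a factor raises and which it lowers. Many of their genes are also general enterocyte genes, so a count says how the genes moved and not which factor moved them.

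**Figure D3:**
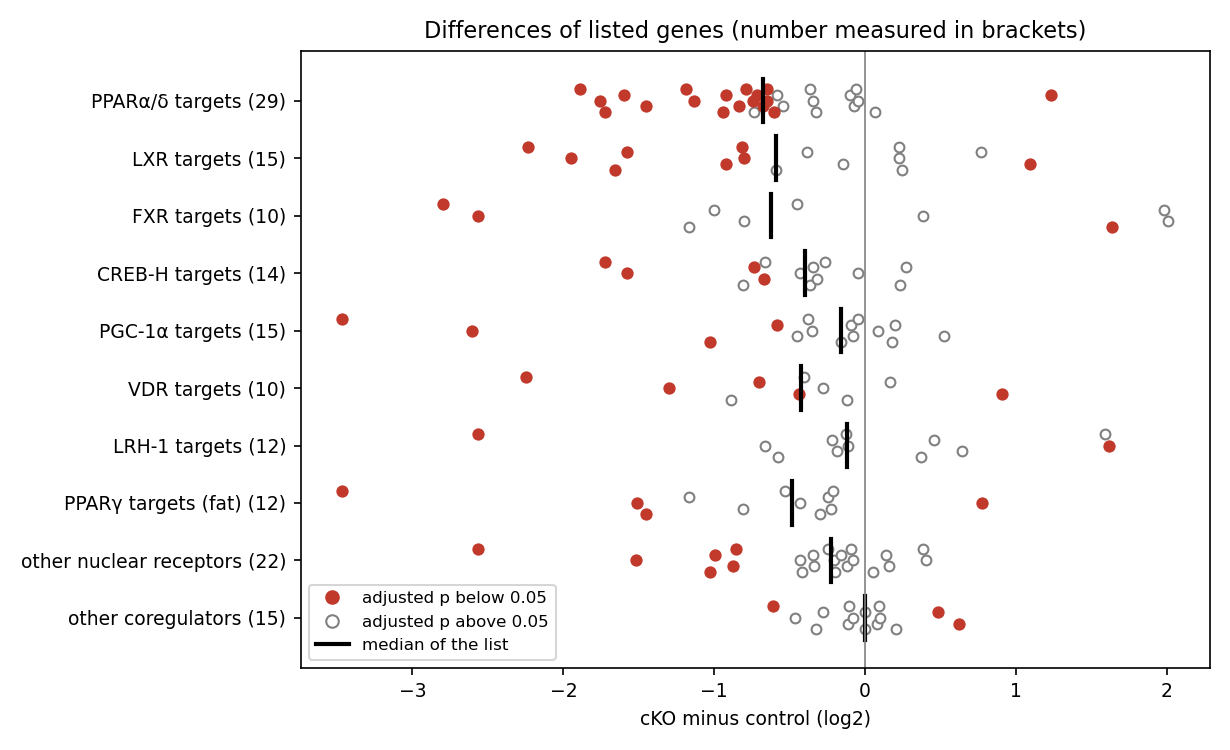
Differences (cKO minus control, log2) of the genes on 8 lists of target genes and on 2 lists of other receptors and coregulators. Each point is a gene, filled where its limma adjusted p was below 0.05, and black ticks are list medians; the median lies below 0 in each list, and in the coregulators it is close to 0.

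Among 29 measured targets of PPAR alpha and delta, 17 fell and 1 rose, with a median of -0.68. The genes with the smallest p were those for the acyl-CoA thioesterases Acot1 and Acot2, the mitochondrial thiolase Acaa2 and the isomerase Eci2. Acot1 read 8.2, 8.12 and 8.11 in cKO and 9.67, 9.88 and 10.06 in control, a difference of -1.73 (SE 0.13, limma adjusted p = 0.00072). Acaa2 differed by -1.60, Acot2 by -1.19 and Eci2 by -1.14, each without overlap of the groups. Fabp1, the fatty acid binding protein gene whose promoter is shown above, fell by 1.89 (SE 0.26, adjusted p = 0.00429) and was chosen after its values were seen. The gene that rose was Vnn1, which encodes the pantetheinase vanin-1, at 7.23, 7.31 and 6.59 in cKO and 6.09, 5.97 and 5.38 in control. Its controls were at background, which makes it at least 1.71-fold higher, and its call was lost without cKO 1, control 2 or control 3 (adjusted p = 0.052, 0.057 and 0.063). Classical PPAR targets that were not called, also named after their values were seen, include Cpt1a (-0.54, adjusted p = 0.129), Pdk4 (-0.37, 0.175) and Angptl4 (-0.06, 0.809).

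Of 12 fat cell targets of PPAR gamma 3 fell and 1 rose (median -0.48). Those that fell were Cebpa (-1.51), a transcription factor gene of fat cells and liver, Pck1 (-3.47, or -2.88 without control 3 and -4.08 without control 1) and the fatty acid translocase gene Cd36 (-1.45). Lpl, lipoprotein lipase, rose by 0.77 (SE 0.14, limma adjusted p = 0.011), to 6.90, 7.12 and 7.26 in cKO against 6.17, 6.37 and 6.42 in control. Adipoq, the adiponectin gene that defines fat cells, lay at or below background on all 6 arrays. The summed linear level of 7 adipocyte markers was 1037 to 1154 in cKO and 1174 to 1896 in control, and 1 of them, Lipe, was called lower (adjusted p = 0.0486), a call lost without cKO 1, 2 or 3 or control 2 or 3 (0.066 to 0.15), while 2 were called without control 1. It was also lost under each of 3 array scalings (0.0504 to 0.0878) and with every probe set tested (0.0501).

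Of 15 LXR targets, 7 fell and 1 rose (median -0.59). Smpdl3a, a phosphodiesterase gene, fell by 1.66, Npc1l1, the cholesterol uptake transporter gene, by 1.58, and Srebf1, the master factor gene of lipogenesis, by 0.80 (limma adjusted p = 0.00104, 0.00356 and 0.00434). Abcg5 and Abcg8, whose products form the sterol efflux pump of the brush border, fell by 1.95 and 2.24 and are named after their values were seen. Abcg8 read 6.86, 6.17 and 6.10 in cKO and 8.0, 8.57 and 9.27 in control. Against these, Apoe read 11.48, 11.05 and 11.43 in cKO and 10.21, 10.20 and 10.27 in control, a rise of 1.09 (SE 0.14, adjusted p = 0.00352). Abca1, the cholesterol efflux gene named after its values were seen, had higher values in cKO (7.81, 7.14 and 7.17) than in control (6.34, 6.55 and 6.92), but was not called (0.77, adjusted p = 0.065). Apoe and Abca1 are also macrophage genes. The summed linear level of 10 macrophage markers was 3399 to 4414 in cKO and 2112 to 2281 in control, and 7 of them rose (Cd68 by 1.05, C1qb by 1.24, Adgre1 by 1.22, C1qc by 1.03). Adgre1 lay at background on 2 control arrays. Csf1r (0.18), Cd14 (0.26) and Cd163 (0.31), named after their values were seen, were not called. Macrophages express Pparg and Nr1h3 as well, and the part of these cells in the values of Apoe, Abca1, Pparg and Nr1h3 was not tested.

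Of 10 FXR targets, 2 fell and 1 rose (median -0.63). Nr0b2 encodes SHP, the repressor that FXR and LRH-1 induce. It read 4.66, 4.24 and 5.82 in cKO and 6.88, 7.05 and 8.49 in control, a difference of -2.57 (SE 0.52, limma adjusted p = 0.0184). Its cKO values were at background, so it was at least 2.70-fold lower, and the call was lost without cKO 1 (adjusted p = 0.0502). With 1 array left out, the bound for Nr0b2 ran from 1.90-fold (without control 3) to 3.32-fold (without control 1). Abcb11, the bile salt export pump gene, differed by -2.80 (adjusted p = 0.0307, at least 3.17-fold lower), with 5.34, 4.41 and 4.97 in cKO and 6.19, 7.83 and 9.10 in control. The controls spread widely. That call was lost without any 1 of the cKO arrays, control 2 or control 3 (adjusted p = 0.051 to 0.103). Its difference was -2.10 without control 3, at least 1.96-fold lower, and -3.56 without control 1, at least 5.37-fold. Ang4, an antimicrobial angiogenin gene, rose by 1.63 (SE 0.19, adjusted p = 0.0024), with control 1 and control 3 at background. It is counted here because it stood on the list, and an action of FXR on Ang4 was not tested.

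The array with the lowest Nr1h4, cKO 3, was also the lowest cKO array for Slc51a, Slc51b, Abcc2, Fabp6, Slc10a2 and Nos2. It was not for Abcb11, Fgf15, Nr0b2 or Ang4, which were lowest on cKO 2. Nr0b2 (5.82) and Ang4 (8.12) were highest on cKO 3, though Nr0b2 lay at background on all cKO arrays. Nos2 is named after its values were seen. Slc51a, the basolateral bile acid exporter gene, read 9.96, 9.91 and 8.99 in cKO 1, 2 and 3 and 10.41, 10.53 and 10.93 in control (-1.0, limma adjusted p = 0.0534), and was called with array weights, with either filter on dim genes and with an intensity trend (0.00368 to 0.0342). Fgf15, the gut hormone gene that FXR induces, read 10.30, 9.69 and 10.16 in cKO and 10.40, 10.45 and 10.65 in control and was not called (-0.45, adjusted p = 0.144). Slc51b and Abcc2, named after their values were seen like Fgf15 and the next pair, were also lowest on cKO 3 (7.83 and 8.28) and were not called. Fabp6, the ileal bile acid binding protein gene, read 8.06, 9.07 and 4.35 in cKO and 5.33, 4.59 and 5.61 in control (adjusted p = 0.279), with cKO 3 and all controls at background. Slc10a2, the ileal bile acid uptake gene, read 5.97, 7.85 and 5.27 in cKO and 4.75, 4.14 and 4.17 in control (adjusted p = 0.066), and was above background on cKO 2 alone. Both genes are markers of the ileum. The same array stood apart in pancreatic enzyme genes: Cpa1 read 10.48 on cKO 3, against 6.58 and 6.60 on cKO 1 and 2 and 6.53 to 6.86 in control, and its difference was 1.19 with cKO 3 and -0.11 without it. The stretch of gut and the adjoining tissue in each sample are not given in the labels, and their part in the values of Nr1h4 and Nr5a2 was not tested. Without cKO 3, Nr1h4 differed by -1.325 (adjusted p = 0.0109) and Nr5a2 by -0.76 (0.0449), both called.

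**Figure D4:**
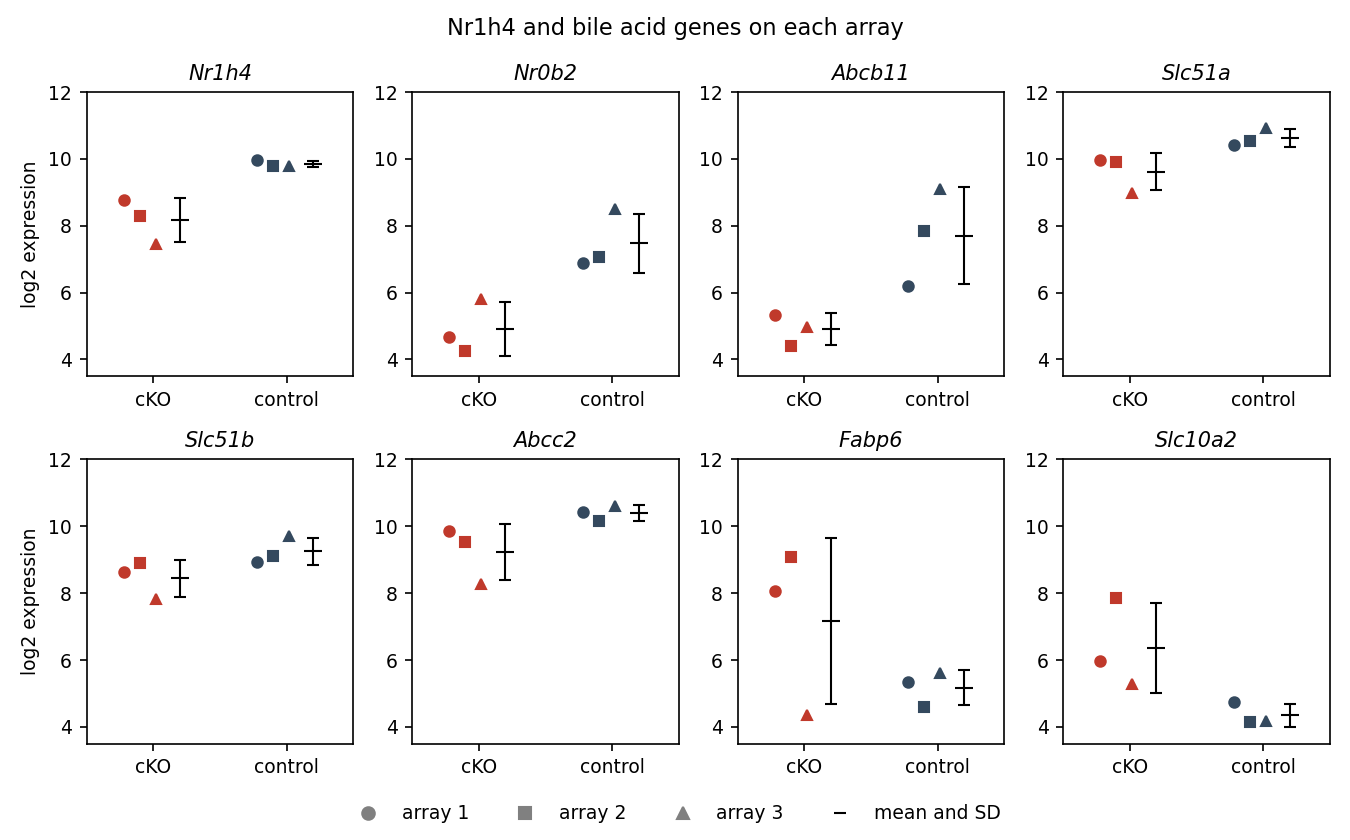
Log2 expression of Nr1h4 and 7 bile acid genes on each array, on a common axis, with cKO left (red) and control right (blue). Symbols mark the array number and bars the mean and SD (n = 3). In cKO, Nr1h4, Slc51a, Slc51b, Abcc2, Fabp6 and Slc10a2 are lowest on array 3. Abcb11 and Nr0b2 are lowest on array 2, and Nr0b2 is highest on array 3. Slc10a2 is above background on array 2 alone.

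Vitamin D receptor targets were mixed: of 10, 4 fell and 1 rose (median -0.42), and 1 to 3 were called without cKO 2, cKO 3, control 1, control 2 or control 3. S100g, the calcium-binding calbindin gene of enterocytes, fell by 2.25 (SE 0.24, limma adjusted p = 0.00196), to 6.49, 6.16 and 6.89 in cKO against 8.65, 8.45 and 9.18 in control. Slc34a2, a phosphate transporter gene, differed by -1.30 (adjusted p = 0.035), a call lost without cKO 2 or 3 or any 1 control (0.070 to 0.135). Abcb1a, a drug efflux gene, rose by 0.91 (adjusted p = 0.0356), a call lost without cKO 1 or 2 or control 1 or 2 (0.073 to 0.127). Cyp3a11 was called lower (adjusted p = 0.0221) with both groups at background, so no fold is given, and the call was lost without cKO 3, control 1 or control 2 (0.077, 0.063 and 0.084) or with an intensity trend (0.0754). Trpv6, the apical calcium channel gene, lay at or below background on all 6 arrays.

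Of 12 LRH-1 targets 1 fell and 1 rose. Nr0b2 fell, as given above. Hsd11b1, which regenerates active glucocorticoid, read 6.87, 7.40 and 7.32 in cKO and 5.52, 5.72 and 5.50 in controls at background, at least 1.90-fold higher (limma adjusted p = 0.00163). The steroid synthesis genes Cyp11a1, Cyp11b1 and Star lay at or below background in both groups. Apom (-0.67, adjusted p = 0.076) and Scarb1 (0.37, adjusted p = 0.10) were not called. Apom was called without control 1 (0.0443), with array weights (0.0234) and without the dimmest 25% of genes (0.049), and Scarb1 with quantile normalization (0.0485), array weights (0.0113), without the dimmer 50% of genes (0.039) and with an intensity trend (0.04997).

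Of 14 CREB-H targets 4 fell and the others were not called (median -0.40), and 1 of those that fell was Npc1l1, given above. Apoc3, an apolipoprotein gene of chylomicrons, read 10.74, 10.68 and 10.97 in cKO and 12.26, 12.59 and 12.72 in control, a difference of -1.73 (SE 0.16, limma adjusted p = 0.00109). Apoa4, a lipid-induced apolipoprotein gene, fell by 0.67, a call lost without control 2 or 3 (adjusted p = 0.098 and 0.093) or with median centring (0.0587), and Fads2, a desaturase gene, by 0.74. Fgf21, a hormone gene that CREB-H and PPAR alpha raise in liver, differed by -0.05 (adjusted p = 0.884). Of 15 PGC-1 alpha targets 4 fell and the others were not called (median -0.16), with 2 called without cKO 3, control 2 or control 3 and 7 or 8 with either filter on dim genes, array weights or an intensity trend. The 4 were Esrra (-1.03), an estrogen-related receptor gene, the gluconeogenic genes Pck1 (-3.47) and G6pc (-2.60, at least 3.40-fold lower), and Sdhb (-0.59) of the respiratory chain. The call of G6pc was lost without any 1 of the arrays but control 1 (adjusted p = 0.055 to 0.090), and its bound was 2.26-fold without control 3 and 5.54-fold without control 1, and that of Sdhb without cKO 3, control 2 or control 3 (0.0543, 0.0997 and 0.0851).

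Of 22 other nuclear receptor genes 6 fell and the others were not called, with a median of -0.23. Esrra read 8.2, 7.81 and 8.06 in cKO and 8.91, 9.09 and 9.15 in control. Hnf4g, an enterocyte receptor gene, fell by 1.52 (SE 0.24, limma adjusted p = 0.00668), its relative Hnf4a by 0.88 (adjusted p = 0.0175, and 0.065 without cKO 3) and the thyroid hormone receptor gene Thrb by 0.99 (at least 1.44-fold lower). Nr0b2 and the pregnane X receptor gene Nr1i2 (-0.85, chosen after its values were seen) were the remaining 2. Of 15 coregulators 2 rose and 1 fell, with a median of 0.00, beside 6.81% of all genes called higher and 7.36% lower. Ncoa3, a steroid receptor coactivator gene, rose by 0.48 and Pprc1, a PGC-1 relative, by 0.62, while Lpin1, a PPAR alpha coactivator gene, fell by 0.61 (adjusted p = 0.0278, 0.0471 and 0.031). Each of these 3 calls was lost without cKO 3, control 1, control 2 or control 3 (0.066 to 0.15), that of Ncoa3 also without cKO 1 (0.063) and that of Pprc1 without cKO 2 (0.096), with median centring (0.0553) or with cyclic loess (0.0538). Ppargc1b, the closest relative of Ppargc1a, differed by -0.11 (adjusted p = 0.764) and was chosen after its values were seen.

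In whole intestine, fewer cells of a type and less RNA per cell cannot be told apart. Of 10 epithelial markers 4 rose and 6 were not called, and their summed linear level was 30063 to 32280 in cKO and 24582 to 28376 in control. Those that rose were the keratin genes Krt8 (0.91), Krt18 (1.19), Krt19 (0.77) and Krt20 (1.61), and only these raised the sum. The other 6, named after their values were seen, were Elf3 (-0.02), Epcam (-0.10), Cdh17 (-0.15), Cldn7 (-0.23), Vil1 (-0.31) and Lgals4 (-0.31, 95% interval -0.56 to -0.06), and the groups lay apart in Vil1 and Lgals4. The call of Krt20 did not hold without cKO 2, cKO 3 or control 2 (limma adjusted p = 0.064, 0.073 and 0.063). All 8 smooth muscle markers rose (Des by 1.35, Cnn1 by 1.23, Tagln by 0.87, Actg2 by 0.76), 4 or 5 of them called without cKO 3, control 2 or control 3. Their summed level was 25264 to 27344 in cKO and 14064 to 16886 in control. The 6 endothelial markers had a median of 0.19, led by Pecam1 (0.33, limma adjusted p = 0.0955), which was called with quantile normalization (0.0447), array weights (0.0325), the stricter filter on dim genes (0.032) and an intensity trend (0.0477). Cldn5 was called without cKO 2 (0.0422) and with array weights (0.0187), and Cdh5 with array weights (0.0286). The summed level of the endothelial markers was 2367 to 2467 in cKO and 2072 to 2134 in control. Of 7 liver and pancreas markers 1 fell, Cps1 (-1.07), which enterocytes also express. The summed level of the 7 was 3361 to 5188 in cKO and 7074 to 7733 in control. The part of muscle or other tissue in the lower receptor genes was not tested.

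The genes whose values over the 6 arrays were most like those of each receptor were sought among 2524 genes above background that ranged over at least 1 log2 unit. With 3 arrays in each of 2 groups, such a correlation mostly reflects the step between the groups and is given as a description. Nearest to Creb3l3 were Ehhadh (Pearson r = 0.998), a peroxisomal oxidation gene and PPAR alpha target, and Enpp7 (0.998), the alkaline sphingomyelinase gene of the brush border. Nr1h3 was nearest to Mogat2 (0.998), which rebuilds triglyceride, and Fbp1 (0.998), a gluconeogenic gene. Pparg resembled Cxcl16 (0.998), a chemokine gene, and Tmprss2 (0.996), a membrane protease gene, which were also higher in cKO, by 1.29 and 2.12. Nr1h4 was nearest to Snx13 and Nrn1 (0.997 and 0.996), Nr5a2 to Smim24 and Tmppe (0.999 and 0.998), Ppara to Mro and Lect2 (0.996 each), and Rxra to Tbc1d10a and Abcd4 (0.999 and 0.998). For Ppargc1a these were Krtap5-2 and Tmem236 (0.999 and 0.997), for Ppard Tapbpl and Ifi35 (0.984 and 0.978), and for Vdr Mgam, the maltase-glucoamylase gene, and Rep15 (0.975 and 0.966).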

How the data were processed

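RNA of 6 samples (3 cKO and 3 control small intestines, grouped by their titles) was hybridised to Affymetrix Mouse Gene 1.0 arrays and analysed by the authors with dChip, per the design text. Per probe set (35512) and array the deposited file gives a number, read as a log2 value made by the authors because the numbers run from 0 to 14.07. Background correction, normalization and scale: not given in the sources used here.

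Probe sets were named from the platform annotation (21789 with 1 symbol, 1621 with several, 12102 unnamed here), and symbols were updated by gene identifier for 21698 (GRCm38.p6). The brightest probe set stood for a gene, which gave 19938 genes. Each was tested with limma 3.58.1 in R 4.3.3 (lmFit, eBayes, two-sided, no covariate, Benjamini-Hochberg over all genes), a code tested on simulated data. Within-array differences were tested by exact permutation in scipy 1.17.1. An "at least" fold sets the brighter group's mean against the dim group's values or background, whichever is higher, where a whole group lies at or below background. Summed linear levels add 2 to the power of each value.

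The 10 genes, the 16 other lists (16 of the 216 listed symbols were not matched and are not analysed) were chosen with earlier results of these data known. Named by rule were the 10 genes, Cdh1, the 4 genes of each list with the smallest p, any gene that moved against its list's majority, and 2 nearest patterns per gene. Alternatives were 3 array scalings, a replicate block, array weights, 2 filters on dim genes, an intensity trend, 2 ways of reading probe sets and each array left out.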

Additional observations from a re-analysis of the deposited data

How the results depend on the processing

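The direction of all 10 genes held under the 16 other settings (15 for Vdr and Ppargc1a, which the stricter filter on dim genes left out). The calls of Ppara, Pparg, Nr1h3, Nr1h4 and Creb3l3 held in all, and those of Nr5a2 and Ppargc1a changed as given above. Rxra was called with array weights (adjusted p = 0.0458) and without the dimmer 50% of genes (0.0365), and Vdr with array weights (0.0277). Over all genes 2825 were called, 5834 with array weights, and 1226 to 2713 with 1 array left out. Median centring called 1490 higher and 1091 lower, against 1358 and 1467. Cdh1 was called with array weights (-0.89, adjusted p = 0.011), without the dimmer 50% of genes (-0.95, 0.0444) and with an intensity trend (-0.95, 0.0477), and ranged over -1.30 to -0.64 with 1 array left out. Called FXR targets numbered 7 with array weights and 6 with an intensity trend, against 3. CREB-H targets numbered 7 with array weights, the intensity trend or without the dimmer 50% of genes, against 4. PGC-1 alpha targets numbered 8 with array weights, the trend or without the dimmest 25%, and 7 without the dimmer 50%, against 4. LRH-1 targets numbered 7 with array weights and 1 without the dimmer 50%, against 2. The labels do not say that equal replicate numbers mark pairs. Deviations from the group mean correlated at -0.080, 0.131 and 0.137 for same-numbered arrays, and not every array correlated best with its own number. Such deviations cancel out within a group, so these correlations cannot show whether samples were paired. With the replicate block 2212 genes and 6 of the 10 were called, with Ppargc1a lost (adjusted p = 0.0586). The block also ended the calls of Abcb1a (0.0671), Ncoa3 (0.0794), Pprc1 (0.0726), Sdhb (0.0507) and Lipe (0.0822), left 3 VDR targets and 1 coregulator called, and gave calls for Ttr (-0.97, 0.00955) and Cidec (-0.81, 0.036). Low signal limits Ppargc1a, whose cKO values lay at background. The cause of these changes was not tested.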
